A study of Mus musculus with 262 samples.

Results

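The Hox genes of the mouse were followed through the nephron and collecting duct of the adult kidney. Members were all genes whose symbol is Hoxa, Hoxb, Hoxc or Hoxd followed by a number. Antisense and opposite-strand transcripts named after them were left out. The rule found 39 members among 47069 genes in the tables of TPM, a unit of transcript share that is scaled by length, 11 in HoxA, 10 in HoxB, 9 in HoxC and 9 in HoxD. The count table held the same number, 39 of 24111 genes, and the RPKM table held 38 of 29732, since Hoxd4 was not matched there by symbol.

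RNA came from kidneys of male mice aged 2 months in 3 kinds of samples. No treatment is given in the labels. C57BL/6 mice gave 235 single cells, captured on a microfluidic chip after sorting. The authors' names divide them into 87 type A intercalated, 23 type B intercalated, 74 principal, 19 proximal tubule and 32 non-epithelial cells. C57BL/6 mice also gave 2 bulk samples sorted on c-Kit, a receptor on intercalated cells, 2 sorted with the lectin DBA, which binds collecting duct cells, and 19 single tubules dissected by hand. Of these, 11 were collecting ducts of the cortex (CCD), and 8 were thick ascending limbs, also cortical (cTAL). The strain Atp6v1b1GFP, whose name joins the gene of a proton pump subunit to green fluorescent protein, gave 2 GFP-positive and 2 GFP-negative bulk samples. The labels do not say which cells carry GFP, how many mice were pooled or whether samples came from separate mice. P-values below therefore measure only the spread between these samples.

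Hox genes encode homeodomain transcription factors that set position along the body axis of the embryo. They lie in clusters in which the order of the genes matches the order of their expression domains from head to tail, and genes at the same place in different clusters are paralogs with similar proteins. In the kidney, paralogs near the 5′ end of the clusters are needed for the metanephros to form, and Hoxb7 is a known marker of the ureteric bud, from which the collecting duct grows. The thick ascending limb comes from the other lineage of the kidney, the nephron progenitors.

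On the GRCm38 build, HoxA lies on chromosome 6 from 52155590 to 52260880 on the minus strand, and the other clusters lie on the plus strand. HoxB spans 96194316 to 96368256 of chromosome 11, HoxC 102921103 to 103036852 of chromosome 15 and HoxD 74668310 to 74765142 of chromosome 2. The homeobox, the DNA that encodes the homeodomain, was read from the GENCODE transcripts of 35 members. Hoxb9 and Hoxc9, of paralog group 9, are shown because they differed in opposite directions between the tubule segments, as described below. Capitals mark codons 48 to 51, within the helix that contacts DNA.

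Hoxb9: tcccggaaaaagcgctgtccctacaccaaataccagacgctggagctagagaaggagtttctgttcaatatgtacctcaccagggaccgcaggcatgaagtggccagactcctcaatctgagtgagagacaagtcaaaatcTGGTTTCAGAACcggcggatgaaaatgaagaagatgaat
Hoxc9: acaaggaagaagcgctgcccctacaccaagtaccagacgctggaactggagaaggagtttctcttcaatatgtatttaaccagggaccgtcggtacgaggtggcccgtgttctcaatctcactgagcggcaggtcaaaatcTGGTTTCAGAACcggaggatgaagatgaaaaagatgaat

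The Hoxb9 homeobox lies in exon 2 of 2 at chr11:96274659-96274838 and that of Hoxc9 in exon 3 of 3 at chr15:102983930-102984109, both coding sequence. They shared 151 of 180 bases. Over 36 pairs of paralogs the identity ran from 71.7% to 93.9%. The longest stretch shared exactly by transcripts of 2 Hox genes in different clusters was 52 bases, between Hoxa6 and Hoxb4, and the median over 569 pairs was 15 bases. Hoxb9 and Hoxc9 shared a stretch of 50 bases. How the counting assigned reads from such stretches is not known here.

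Within HoxD, Hoxd10 and Hoxd3 lie on either side of Hoxd8 and Hoxd9 and had opposite levels in the tubules, so their promoter windows are shown. Each covers 250 bases before to 50 bases after the RefSeq start on GRCm38.p6, plus strand, with CpG dinucleotides in capitals.

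Hoxd10, chr2:74691641-74691940: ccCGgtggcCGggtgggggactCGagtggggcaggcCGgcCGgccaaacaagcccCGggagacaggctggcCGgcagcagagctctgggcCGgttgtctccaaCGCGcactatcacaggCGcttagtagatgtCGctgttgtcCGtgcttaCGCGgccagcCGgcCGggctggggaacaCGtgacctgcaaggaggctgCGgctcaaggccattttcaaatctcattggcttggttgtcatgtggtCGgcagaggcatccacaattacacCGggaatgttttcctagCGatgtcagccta
Hoxd3, chr2:74711743-74712042: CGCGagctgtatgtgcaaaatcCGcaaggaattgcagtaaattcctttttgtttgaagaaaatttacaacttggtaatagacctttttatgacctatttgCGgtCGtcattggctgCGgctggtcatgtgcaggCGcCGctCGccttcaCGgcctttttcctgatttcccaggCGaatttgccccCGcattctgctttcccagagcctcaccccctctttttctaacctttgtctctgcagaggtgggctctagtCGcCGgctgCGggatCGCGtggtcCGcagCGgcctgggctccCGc

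The Hoxd10 window holds 22 CpG dinucleotides and the Hoxd3 window 20, beside a median of 14.5 over 24 windows of 22 Hox genes and 7 over all 32851 windows of the table. Neither window holds the letters TATAAA, TGATTTAT or TAATTA on either strand, which occur in 13.6%, 0.977% and 5.29% of all windows.

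Markers matched the labels of the tubules. The 8 principal cell markers summed to between 26368 and 48119 TPM in CCDs and between 44.2 and 214 in cTALs, and the 5 thick ascending limb markers to between 53.5 and 701 in CCDs and between 33613 and 53916 in cTALs. CCDs also held the 5 intercalated cell markers at 3926 to 5901 TPM, against 516 to 918 in cTALs. A CCD value thus mixes principal and intercalated cells, whose parts in the Hox differences were not tested. The 5 markers of distal convoluted and connecting tubule summed to 258 to 610 TPM in CCDs and 0.16 to 15.5 in cTALs. Nearly all of this was Calb1, at 254 to 588 TPM in CCDs, which was also detected in 71 of 74 single principal cells, and the medians of the other 4 genes in CCDs were 2.42 TPM or less. No gene of the principal, thick ascending limb and intercalated lists was at 0 in every tubule of a segment. The CCD with prefix m2 stood apart. Its median rank correlation with the other CCDs was 0.68, against 0.82 to 0.92 for the rest, and it held 7621 genes at 1 TPM or more, against 10323 to 14004.

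The summed Hox level was similar in the segments, with a median of 648 TPM in CCDs and 552 in cTALs, while the clusters behind it differed. HoxB made up a median of 44.1% of the sum in CCDs and 18.6% in cTALs. HoxA made up 2.06% and 22.3%, and HoxC 0.184% and 5.57%. HoxD held 52.7% and 53.8%. HoxA summed to between 3.81 and 33.4 TPM in CCDs and between 77.7 and 194 in cTALs, and HoxC to between 0.04 and 6.46 TPM in CCDs and between 23.5 and 59.3 in cTALs. For both clusters every cTAL lay above every CCD, whereas for HoxB every CCD, at 244 TPM or more, lay above every cTAL, at 134 TPM or less.

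**Figure D1:**
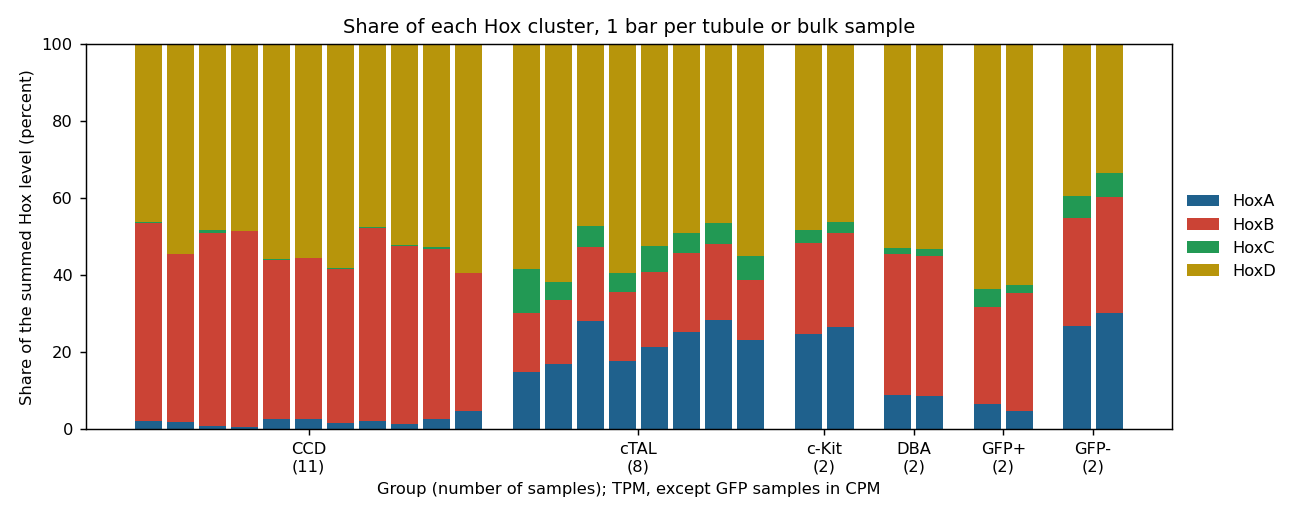
Share of the summed Hox level (vertical axis, percent) held by each cluster, with 1 stacked bar per tubule or bulk sample, grouped along the horizontal axis. TPM was used except for the GFP samples, which are in CPM. HoxA is a thin band in the 11 CCDs (median 2.06%) and a wide one in the 8 cTALs (median 22.3%).

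Hoxd8 was the most abundant member by median in both segments. By median TPM it was followed in CCDs by Hoxb7, Hoxb6, Hoxb9, Hoxd9, Hoxb2 and Hoxd3, and in cTALs by Hoxd10, Hoxa9, Hoxa7, Hoxb7, Hoxb6 and Hoxa10. The ranges of Hoxb6 and Hoxb9 overlapped in CCDs, as did those of Hoxd9, Hoxb2 and Hoxd3, and in cTALs those of all 6 genes after Hoxd8 overlapped. Hoxd8 ranged from 184 through a median of 268 to 407 TPM in CCDs and from 187 through 202 to 274 TPM in cTALs. The cTAL range lay within the CCD range, and CCD was higher in 5 of the 6 prefixes (defined below) that hold both segments. The difference was 0.36 ± 0.14 on the log2 scale (SE; limma, adjusted p = 0.0652), and it passed the threshold without the CCD numbered 1 of prefix m6 (adjusted p = 0.0241) or without the m4 cTAL (adjusted p = 0.0362), with sample weights (adjusted p = 0.00822) and among genes with a mean of 10 TPM or more (adjusted p = 0.044).

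In the comparison of CCD with cTAL, Hox genes differed in both directions. Of 22 members with a mean of at least 1 TPM, 15 (68.2%) passed the test, where 18.7% of all 13520 genes tested did. Hoxb2, Hoxb6, Hoxb7, Hoxb9, Hoxd3 and Hoxd4 were higher in CCDs, and Hoxa5, Hoxa7, Hoxa9, Hoxa10, Hoxc6, Hoxc8, Hoxc9, Hoxc10 and Hoxd10 were higher in cTALs. Those 6 and 9 genes stand beside 13.2% and 5.50% of all genes in each direction. The groups did not overlap for 10 members (45.5%), where this held for 5.51% of all genes, and 5 of them were higher in CCD (3.40% of all genes) and 5 lower (2.11%). The median log2 difference was 0.17 over the members and 0.31 over all genes, so the values below can be read against 0.31. With quantile normalization the median of all genes was -0.03 and the share of calls higher in CCD fell from 70.6% to 49.5%, while the members still gave 6 and 9 calls.

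**Figure D2:**
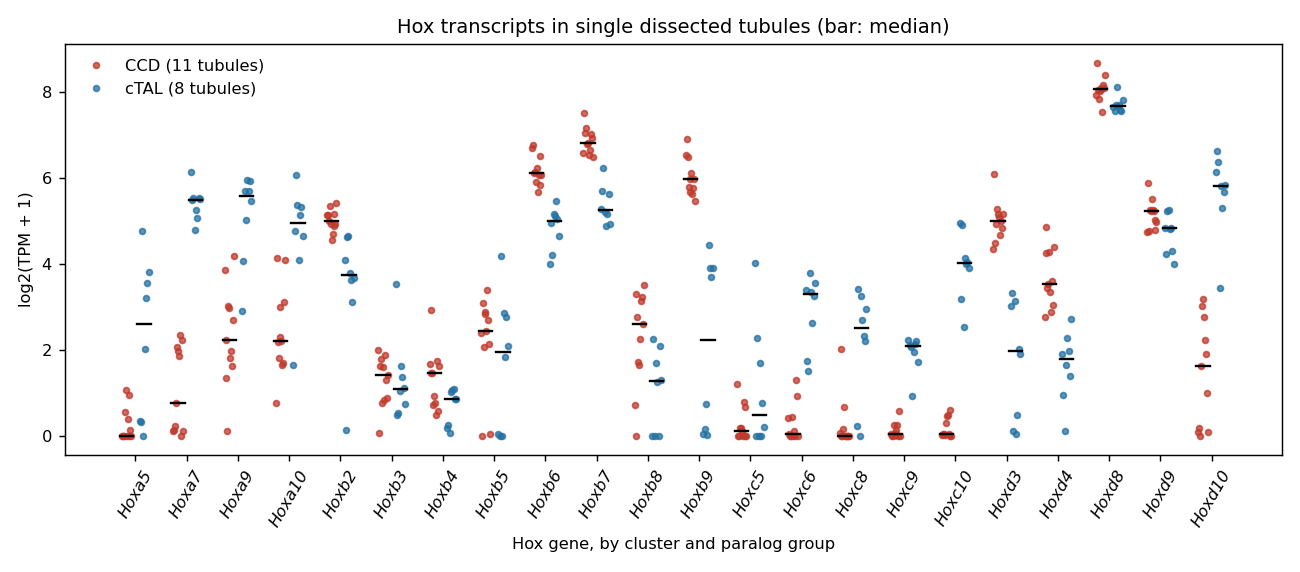
Level of the 22 tested Hox genes (horizontal axis, by cluster and paralog group) as log2(TPM + 1) (vertical axis) in each of 11 CCDs and 8 cTALs, with a bar at each median. Hoxb9, Hoxd3, Hoxb6 and Hoxb7 of CCDs lie above those of cTALs, and Hoxa7, Hoxc10 and Hoxd10 below.

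In HoxB, 4 of 8 tested members passed, all higher in CCD. Hoxb9 ranged from 42.9 through a median of 61.8 to 118 TPM in CCDs and from 0.02 through 6.34 to 20.8 in cTALs. Every CCD was above every cTAL, and the difference was 3.91 ± 0.58 (SE; limma, adjusted p = 2.3e-05), the largest among members higher in CCD. Hoxb7, the ureteric bud marker, ranged from 88.7 through 111 to 181 TPM in CCDs and from 28.5 through 37.0 to 74.2 in cTALs. The transcript was thus plentiful in both segments without overlap between them, with a difference of 1.48 ± 0.20 (limma, adjusted p = 6.8e-06). Hoxb6, its neighbour, ranged from 50.2 through 68.2 to 107 TPM in CCDs and from 15.0 through 31.1 to 43.0 in cTALs, again with no overlap, and differed by 1.36 ± 0.23 (limma, adjusted p = 0.00012). Hoxb2, from the other end of the cluster and known for its part in the hindbrain, ranged from 22.6 through 31.0 to 41.5 TPM in CCDs and from 0.1 through 12.3 to 24.1 in cTALs. The m3 and m4 cTALs reached into the CCD range, and the difference was 1.55 ± 0.44 (limma, adjusted p = 0.014).

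In HoxA all 4 tested members were higher in cTAL. Hoxa7 ranged from 0 through a median of 0.7 to 4.08 TPM in CCDs and from 26.8 through 43.8 to 68.8 in cTALs. It was low in all CCDs and high in all cTALs, and the difference of -4.33 ± 0.42 (limma, adjusted p = 3.4e-08) was the largest of any member. Hoxa9 ranged from 0.08 through 3.73 to 17.3 TPM in CCDs and from 6.47 through 46.7 to 60.3 in cTALs, and differed by -2.73 ± 0.52 (limma, adjusted p = 0.00045). Only the m1 and m2 cTALs reached into the CCD range. Hoxa10, a gene of paralog group 10, ranged from 0.7 through 3.66 to 16.5 TPM in CCDs and from 2.13 through 30.1 to 65.5 in cTALs, and differed by -2.18 ± 0.54 (limma, adjusted p = 0.0052). The m1 and m6 cTALs with the lowest values overlapped with CCDs. Hoxa5 was at 1.11 TPM or less in every CCD and ranged from 0 through 5.66 to 26.4 TPM in cTALs, with a difference of -1.97 ± 0.55 (limma, adjusted p = 0.012). The cTALs of prefixes m1, m2 and m4 held 0.28 TPM or less, and the others held 3.07 TPM or more.

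HoxC was close to silent in CCDs, and 4 of its 5 tested members were higher in cTAL. Hoxc10 ranged from 0 through a median of 0.04 to 0.53 TPM in CCDs and from 4.78 through 15.2 to 30.2 in cTALs. The groups were far apart, with a difference of -3.77 ± 0.34 (limma, adjusted p = 8.8e-09). Hoxc6 reached at most 1.49 TPM in CCDs and ran from 1.87 to 12.9 in cTALs, and Hoxc9 reached at most 0.51 TPM in CCDs and ran from 0.9 to 3.7 in cTALs. Their differences were -2.61 and -1.80, neither with overlap. Hoxc8 ran from 0 to 3.1 TPM in CCDs and from 0 to 9.64 in cTALs, with a difference of -1.86 (limma, adjusted p = 0.0045) and 2 cTALs, of prefixes m1 and m3, at 0.17 TPM or less. In GENCODE, Hoxc5 overlaps Hoxc6, Hoxc8, Hoxc9 and Hoxc10 on the same strand, so how reads were divided between it and them is uncertain.

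HoxD was divided within the cluster. Hoxd10 ranged from 0 through a median of 2.12 to 8.14 TPM in CCDs and from 9.88 through 55.3 to 97.8 in cTALs, without overlap, and differed by -4.18 ± 0.53 (limma, adjusted p = 2.4e-06). Hoxd3, on the other side of Hoxd8 and Hoxd9, ranged from 19.5 through 30.7 to 67.1 TPM in CCDs and from 0.04 through 2.94 to 9.09 in cTALs. This gene was high in every CCD, and the difference was 3.24 ± 0.46 (limma, adjusted p = 9.8e-06). Hoxd4 ranged from 5.8 through 10.6 to 27.8 TPM in CCDs and from 0.09 to 5.61 in cTALs, the closest of the non-overlapping genes, with a difference of 2.04 ± 0.40 (limma, adjusted p = 0.00059). Hoxd3 and Hoxd4 overlap on the same strand in GENCODE, so how their reads were divided is uncertain. Between them and Hoxd10, Hoxd9 ranged from 25.8 through 36.7 to 57.7 TPM in CCDs and from 15.0 through 27.3 to 37.4 in cTALs, with a difference of 0.46 ± 0.24 (limma, adjusted p = 0.22), and it passed with sample weights (0.68, limma, adjusted p = 0.0089).

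Members of paralog group 9 differed in direction: Hoxa9 and Hoxc9 were higher in cTAL, Hoxb9 was higher in CCD, and Hoxd9 did not pass the test except with sample weights. In group 10, Hoxa10, Hoxc10 and Hoxd10 were all higher in cTAL. The other tested members that did not pass were Hoxb3, Hoxb4, Hoxb5, Hoxb8 and Hoxc5, with differences from -0.84 to 1.19. Hoxb8 passed when the m2 CCD was left out (1.41, limma, adjusted p = 0.0277). The remaining 17 members were below the filter of 1 TPM. They include the 8 members that stayed below 1 TPM or CPM in every bulk sample and tubule: Hoxa13, Hoxb1, Hoxb13, Hoxc11, Hoxc12, Hoxc13, Hoxd12 and Hoxd13. Of the paralog group 11 genes, Hoxa11 reached 3.33 TPM in 1 CCD and Hoxd11 2.14 TPM in 1 cTAL.

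**Figure D3:**
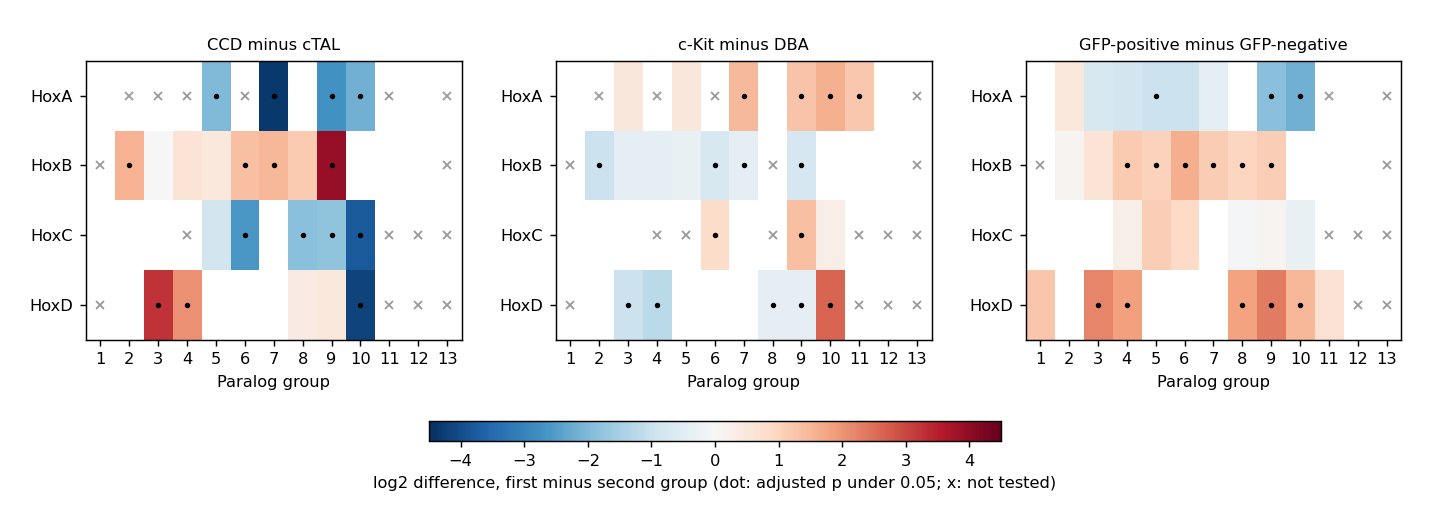
Log2 difference (colour; first minus second group) of each Hox gene by cluster (rows) and paralog group (columns) in the 3 comparisons, with a dot where the adjusted p was under 0.05 a cross where the gene was not tested and a blank where the cluster has no such gene or its value is not given here. In the left panel the HoxB genes with a dot are higher in CCD and the HoxA and HoxC genes with a dot higher in cTAL, while HoxD holds both directions.

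Tubules carry a prefix, m1 to m7, in the authors' column names, which is not stated to be a mouse. The 11 CCDs carry 7 prefixes and the 8 cTALs 6. If a prefix is a mouse, tubules share animals and p-values over tubules are too small. With 1 mean per prefix and segment, 11 of 22 members passed, as did 1796 of all 13520 genes. Hoxa5, Hoxa10, Hoxb2 and Hoxc8 no longer passed (limma, adjusted p of 0.132, 0.061, 0.111 and 0.0501). In the 6 prefixes with both segments, Hoxb2, Hoxb6, Hoxb7, Hoxb9, Hoxd3 and Hoxd4 were higher in CCD in 6 of 6, and Hoxa7, Hoxa10, Hoxc6, Hoxc9, Hoxc10 and Hoxd10 were higher in cTAL in 6 of 6. Hoxa5, Hoxa9 and Hoxc8 were higher in cTAL in 5 of 6. Some differences counted here were small. In prefix m4, Hoxb2 differed by 0.09 and Hoxd10 by -0.34 on the log2 scale. In the other prefixes Hoxb2 differed by 0.56 to 5.00 and Hoxd10 by -3.48 to -6.44. These prefix counts come from the same tubules as the calls and were not made over all genes.

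Some members differed among the cTALs by prefix. Hoxb9 was between 0.02 and 0.69 TPM in the 4 cTALs of prefixes m1 to m4 and between 12.0 and 20.8 in the 4 of prefixes m6 and m7. CCDs of m6 and m7 held 42.9 to 62.3 TPM, so the segments stayed apart within these prefixes. Hoxa3 was at 0.01 TPM or less in the first 4 cTALs and between 0.72 and 4.92 in the others. The m6 and m7 cTALs held 21 to 23 Hox genes at 1 TPM or more, and the other 4 held 14 to 17. They also held more genes of any kind at that level, 11127 to 12385 against 8094 to 10332, and the part of this in the Hox values was not tested.

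In the bulk comparison of c-Kit with DBA, 4 HoxA genes, 2 HoxC genes and Hoxd10 were higher in c-Kit samples, and 4 HoxB genes and 4 other HoxD genes were higher in DBA samples. In bulk samples, fewer cells of a type and less RNA per cell cannot be told apart. Of 21 members tested, 15 (71.4%) passed, where 44.3% of all 14341 genes did. Hoxa7, Hoxa9, Hoxa10, Hoxa11, Hoxc6, Hoxc9 and Hoxd10 were higher in c-Kit, 7 members beside 16.1% of all genes, and Hoxb2, Hoxb6, Hoxb7, Hoxb9, Hoxd3, Hoxd4, Hoxd8 and Hoxd9 were lower, 8 members beside 28.1%. The groups did not overlap for 20 of 21 members, beside 73.9% of all genes, with 10 higher (27.6% of all genes) and 10 lower (46.3%). The median was -0.34 over the members and -0.11 over all genes. Under quantile normalization the median of all genes was 0.02, the share of calls higher in c-Kit rose from 36.5% to 49.9%, and the members gave 9 higher and 8 lower.

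Hoxd10 stood at 51.4 and 44.5 TPM in the c-Kit samples and at 8.16 and 5.73 in the DBA samples. Both c-Kit samples were well above both DBA samples, and the difference of 2.64 ± 0.17 (SE; limma, adjusted p = 5.9e-05) was the largest of the members. Hoxa10 stood at 70.9 and 68.1 TPM in c-Kit and 22.7 and 21.8 in DBA, a difference of 1.60 ± 0.08 (limma, adjusted p = 2.2e-05). Hoxa7 stood at 30.1 and 31.2 against 10.8 and 10.1 TPM, and differed by 1.47 ± 0.10 (limma, adjusted p = 8.2e-05). Hoxa9 stood at 44.8 and 51.9 against 19.6 and 18.7 TPM. These 3 HoxA genes were detected in both groups, with every c-Kit sample higher. The difference for Hoxa9 was 1.29 ± 0.10 (limma, adjusted p = 0.00015). Hoxa11, Hoxc6 and Hoxc9 were lower in level, between 3.75 and 5.7 TPM in c-Kit and between 0.98 and 2.44 in DBA, with differences from 0.84 to 1.34.

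Among the genes higher in DBA, Hoxd8 stood at 252 and 249 TPM, against 198 and 184 in c-Kit. The samples did not overlap, although the difference was small, at -0.39 ± 0.06 (limma, adjusted p = 0.0029). Hoxd4 stood at 9.58 and 9.67 TPM in DBA and 3.61 and 3.51 in c-Kit, the largest difference in this direction, at -1.22 ± 0.15 (limma, adjusted p = 0.00085). Hoxd3 stood at 22.6 and 23.2 TPM in DBA and 10.8 and 11.8 in c-Kit, and Hoxd9 at 50.1 and 53.3 against 38.5 and 36.6. Hoxd3 thus differed more than Hoxd9 in size, by -0.97 and -0.45. Hoxb2 stood at 33.1 and 28.3 TPM in DBA and 14.9 and 15.1 in c-Kit, and Hoxb6 at 72.2 and 74.9 against 43.1 and 45.5. Hoxb9 stood at 42.4 and 45.5 TPM in DBA and 24.9 and 26.2 in c-Kit, and Hoxb7 at 81.3 and 73.0 against 59.8 and 54.6. Every DBA sample was above every c-Kit sample for these 4 HoxB genes, with differences of -0.98, -0.72, -0.76 and -0.42 in that order of naming.

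Hoxb7 no longer passed without c-Kit sample 2 (adjusted p = 0.0549) or DBA sample 1 (0.082), Hoxd9 without DBA sample 2 (0.0611) and Hoxc6 without c-Kit sample 1 (0.0623), DBA sample 1 (0.128) or DBA sample 2 (0.0936), all by limma with the lone sample assumed to vary like the other group. Tested members that did not pass were Hoxa3, Hoxa5, Hoxb3, Hoxb4, Hoxb5 and Hoxc10, with differences from -0.40 to 0.52. The 4 type A markers summed to 3059 and 3097 TPM in c-Kit and 61.1 and 73.1 in DBA, and the 8 principal markers to 2842 and 3759 against 23272 and 25868. Proximal tubule markers, 7 genes, summed to 1449 to 1594 TPM in c-Kit and 3060 to 3176 in DBA, and leukocyte markers, 5 genes, to 3679 to 3937 TPM in c-Kit and 11763 to 12216 in DBA. None of these genes was at 0 in every sample of a group. Of the thick ascending limb markers, Umod, Slc12a1 and Cldn16 did not pass between c-Kit and DBA, with differences of 0.03, 0.13 and 0.30. Cldn10 was lower in c-Kit (-0.72) and Ptger3 higher (2.83). The part of all such cells in the Hox differences was not tested.

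**Figure D4:**
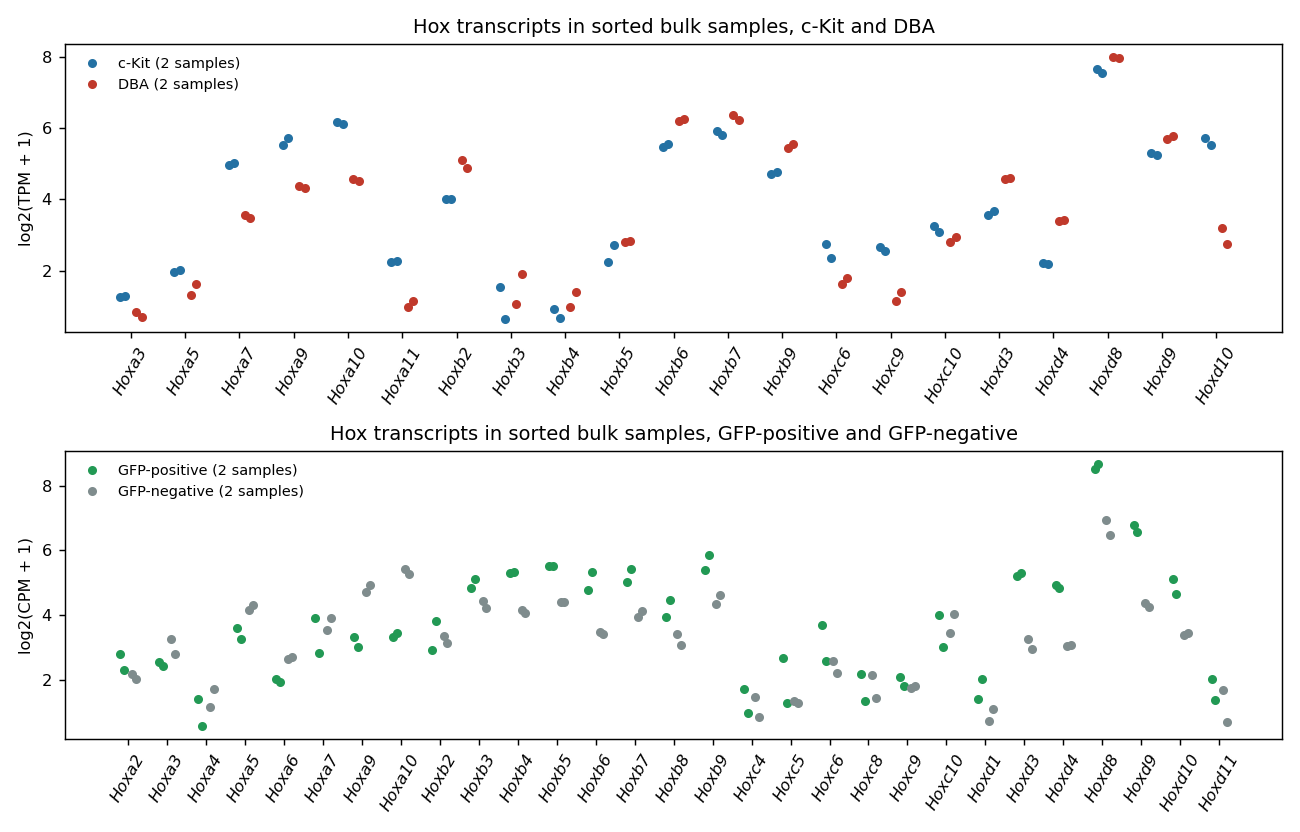
Level of 21 tested Hox genes (top) and 29 (bottom) along the horizontal axis in each bulk sample, as log2(TPM + 1) for 2 c-Kit and 2 DBA samples (top) and log2(CPM + 1) for 2 GFP-positive and 2 GFP-negative samples (bottom). HoxA points of c-Kit lie above those of DBA, and Hoxa9 and Hoxa10 points of GFP-positive samples lie below those of GFP-negative samples.

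The GFP samples were counted in reads, with 35530885 to 40815091 reads in genes per sample. In GFP-positive samples 6 of 8 tested HoxB genes and 5 of 7 HoxD genes were higher, and 3 of 9 HoxA genes were lower. Of 30 members tested, 14 (46.7%) passed, where 32.6% of all 15671 genes did. Hoxb4, Hoxb5, Hoxb6, Hoxb7, Hoxb8, Hoxb9, Hoxd3, Hoxd4, Hoxd8, Hoxd9 and Hoxd10 were higher in GFP-positive samples, 11 members beside 15.2% of all genes, and Hoxa5, Hoxa9 and Hoxa10 were lower, 3 members beside 17.3%. The median log2 difference was 0.64 over the members and 0.02 over all genes. The groups did not overlap for 21 of 30 members, near the 69.2% of all genes. The 6 HoxC genes tested had differences from -0.32 to 1.10, and the lowest adjusted p among them was 0.17 (edgeR), for Hoxc6, which passed on RPKM (1.90, limma, adjusted p = 0.0389).

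Values for these samples are CPM, read counts scaled to the same total of reads in genes, which are not scaled by transcript length. Hoxd8 stood at 368 and 405 CPM in GFP-positive and 123 and 87.9 in GFP-negative samples, a difference of 1.80 ± 0.18 (SE; edgeR, adjusted p = 0.00018). Hoxd9 stood at 109 and 93.4 against 19.7 and 17.8 CPM, the largest increase, at 2.34 ± 0.19 (edgeR, adjusted p = 6.9e-05). Both positive samples were several times above both negative ones. Hoxd3 stood at 36.2 and 38.8 against 8.67 and 6.70 CPM, a difference of 2.21 ± 0.23 (edgeR, adjusted p = 0.00021). Hoxd4 stood at 29.5 and 27.7 against 7.30 and 7.41 CPM, and Hoxd10 at 34.0 and 23.9 against 9.36 and 9.95. HoxD genes on both sides of Hoxd8 and Hoxd9 thus moved in the same direction here, by 1.86 for Hoxd4 and 1.48 for Hoxd10.

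In HoxB, Hoxb9 stood at 41.5 and 56.9 CPM in GFP-positive and 19.4 and 23.6 in GFP-negative samples. Hoxb7 stood at 31.7 and 42.0 against 14.4 and 16.5 CPM, and Hoxb6 at 26.5 and 39.7 against 10.2 and 9.77. Positive samples were above negative samples for each gene, by 1.10, 1.16 and 1.64 on the log2 scale. Hoxb5 stood at 44.6 and 45.1 against 20.2 and 20.3 CPM, and Hoxb4 at 38.1 and 39.6 against 17.0 and 15.6, with differences of 1.05 and 1.16. In HoxA the order was turned round. Hoxa10 stood at 9.06 and 9.89 CPM in GFP-positive and 41.9 and 38.0 in GFP-negative samples, a difference of -2.16 ± 0.22 (edgeR, adjusted p = 0.00019). Hoxa9 stood at 9.06 and 7.10 against 25.3 and 29.8 CPM, a difference of -1.87 ± 0.27 (edgeR, adjusted p = 0.0011). Hoxa5 ran from 8.58 to 11.0 CPM in positive and from 16.9 to 19.0 in negative samples, with a difference of -0.98.

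Some of these calls rested on single samples, again with the lone sample assumed to vary like the other group. Without GFP-positive sample 2, Hoxa5, Hoxb7, Hoxb8 and Hoxb9 did not pass (edgeR, adjusted p of 0.123, 0.0548, 0.252 and 0.0711). Hoxa5 also did not pass without GFP-negative sample 2 (0.136), nor Hoxb8 without GFP-negative sample 1 (0.0529) or sample 2 (0.102). In the authors' RPKM values Hoxa5 differed by 0.01 (limma, adjusted p = 0.992) and Hoxb8 by 1.55 (limma, adjusted p = 0.0759). On that scale Hoxa7 was higher in GFP-positive samples (1.28, limma, adjusted p = 0.0333), against the direction of the called HoxA genes, whereas on counts it differed by -0.40 (edgeR, adjusted p = 0.496). The 7 proximal tubule markers summed to between 2016 and 3252 CPM in GFP-positive and between 15159 and 16864 in GFP-negative samples, and the 5 intercalated markers to 3401 to 4850 against 216 to 261. The 5 thick ascending limb markers summed to 10036 to 15499 against 7757 to 8712 CPM, and the 8 principal markers to 1262 to 2035 against 526.2 to 552. Markers of distal convoluted and connecting tubule summed to 1221 to 1920 against 112 to 161 CPM, and leukocyte markers to 65.4 to 67.8 against 308 to 846. None of these genes was at 0 in every sample of a group. Their part in the Hox differences was not tested.

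The overlaps below were counted over Hox members only, so they have no share over all genes to be read against. Set side by side, the comparison of c-Kit with DBA and that of CCD with cTAL shared no samples. Each called 15 members, and 12 were called in both, 80% of each list. All 12 had opposite signs: Hoxb2, Hoxb6, Hoxb7, Hoxb9, Hoxd3 and Hoxd4 were high in CCDs and in DBA samples, and Hoxa7, Hoxa9, Hoxa10, Hoxc6, Hoxc9 and Hoxd10 were high in cTALs and in c-Kit samples. Between the c-Kit and GFP comparisons, 10 members were called in both, 66.7% of 15 and 71.4% of 14. Hoxd10 was higher in both c-Kit and GFP-positive samples, and the other 9 had opposite signs. Between the CCD and GFP comparisons, 9 members were called in both, 60% of 15 and 64.3% of 14. Of these, 8 had the same sign, being high in CCDs and GFP-positive samples (Hoxb6, Hoxb7, Hoxb9, Hoxd3 and Hoxd4) or low in both (Hoxa5, Hoxa9 and Hoxa10), and Hoxd10 had opposite signs. Hoxa10, for example, was higher in c-Kit than in DBA, by 1.60, and lower in GFP-positive samples, at -2.16. By markers, DBA samples held the principal cell list at 23272 TPM or more, and GFP-negative samples held the proximal tubule list at 15159 CPM or more. These are different lists in different units, and the part of such cells in the signs was not tested.

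Single cells showed the Hox genes by cell type, with no test, because the labels name no mouse per cell and each type is then 1 sample. Detection means a TPM of at least 1, and intervals are exact Clopper-Pearson 95% intervals that cover counting error only. The labels give the sort: 60 of 87 type A cells were sorted on DBA and c-Kit together and 25 on c-Kit, 37 of 74 principal cells on DBA and 37 on both, and 17 of 23 type B cells with the lectin PNA. Cells of the types held similar numbers of genes, with medians from 2704 in type A to 3253 in proximal tubule cells. Aqp2, the water channel of principal cells, was detected in 58 of 87 type A and 15 of 32 non-epithelial cells, at medians of 2.81 and 0.72 TPM, against a median of 1821 TPM in principal cells. Type A markers were detected in 14 (Slc4a1) to 19 (Kit) of 74 principal cells. In non-epithelial cells they were detected in 10 (Dmrt2) to 15 (Kit) of 32. The mean of Kit was 43.5 TPM in principal, 88.6 in non-epithelial and 290 in type A cells. The source of these marker values, and their part in the Hox shares, was not tested.

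Hoxd8 was detected in more cells than any other member in 4 of the 5 types, and in as many proximal tubule cells as Hoxb6. It was detected in 68 of 74 principal cells (91.9%, 83.2% to 97.0%), 65 of 87 type A cells (74.7%, 64.3% to 83.4%) and 18 of 23 type B cells (78.3%, 56.3% to 92.5%). Proximal tubule cells had it in 9 of 19 and non-epithelial cells in 13 of 32. The median level was 206 TPM in principal, 21.1 in type A, 64.2 in type B, 0.56 in non-epithelial and 0.4 in proximal tubule cells. Principal cells had the highest share and median, although their interval overlapped those of both intercalated types.

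HoxA genes were found mainly outside principal cells. Any HoxA gene was detected in 57 of 87 type A cells (65.5%, 54.6% to 75.4%), 17 of 23 type B cells, 15 of 19 proximal tubule cells and 14 of 74 principal cells (18.9%, 10.7% to 29.7%). Non-epithelial cells had one in 11 of 32. Hoxa10 was detected in 39 of 87 type A cells (44.8%, 34.1% to 55.9%) and 9 of 74 principal cells (12.2%, 5.71% to 21.8%), with means of 53.2 and 1.51 TPM. Hoxa9 was detected in 34 of 87 type A cells (39.1%, 28.8% to 50.1%) and 4 of 74 principal cells (5.41%, 1.49% to 13.3%), with means of 41.2 and 0.45 TPM. The intervals of type A and principal cells did not overlap for either gene. In type A cells 1 cell held 54.9% of the summed Hoxa9 level, so the mean rests on few cells.

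HoxC was the rarest cluster. Any HoxC gene was detected in 31 of 87 type A cells (35.6%, 25.6% to 46.6%), 6 of 23 type B cells and 3 of 74 principal cells (4.05%, 0.844% to 11.4%). It was also found in 8 of 19 proximal tubule and 4 of 32 non-epithelial cells. Hoxc10 was detected in 14 of 87 type A cells (16.1%, 9.09% to 25.5%) and in 0 of 74 principal cells. The exact interval of that 0 reaches 4.86%, and the limit set by 3 cells of the total is 4.05%. Hoxc9 was detected in 15 of 87 type A cells and 1 of 74 principal cells. HoxC was thus seldom seen in principal cells, whose interval lay below that of type A cells.

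HoxB was found in most principal cells, with any gene detected in 70 of 74 (94.6%, 86.7% to 98.5%), against 60 of 87 type A cells (69.0%, 58.1% to 78.5%) and 14 of 32 non-epithelial cells. Type B cells had one in 15 of 23 and proximal tubule cells in 14 of 19 (73.7%, 48.8% to 90.9%). Hoxb6 was detected in 52 of 74 principal cells (70.3%, 58.5% to 80.3%), 35 of 87 type A cells (40.2%, 29.9% to 51.3%) and 5 of 23 type B cells. Proximal tubule cells had Hoxb6 in 9 of 19 (47.4%, 24.4% to 71.1%). Both proximal tubule intervals overlapped those of principal cells. Principal cells stood above the intercalated types for this gene, at a median of 8.82 TPM against 0.3 and 0.05. Hoxb7 was detected in 29 of 74 principal and 17 of 87 type A cells, and Hoxb9 in 33 of 74 and 24 of 87. The intervals of the types overlapped for both. In HoxD, Hoxd10 was detected in 16 of 87 type A cells (18.4%, 10.9% to 28.1%) and 1 of 74 principal cells (1.35%, 0.0342% to 7.30%). Hoxd4 was detected in 13 of 74 principal and 5 of 87 type A cells, and Hoxd3 in 8 of 74 and 3 of 87. Hoxd10 was thus the more frequent in type A cells and Hoxd3 and Hoxd4 in principal cells, with overlapping intervals for the latter pair.

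**Figure D5:**
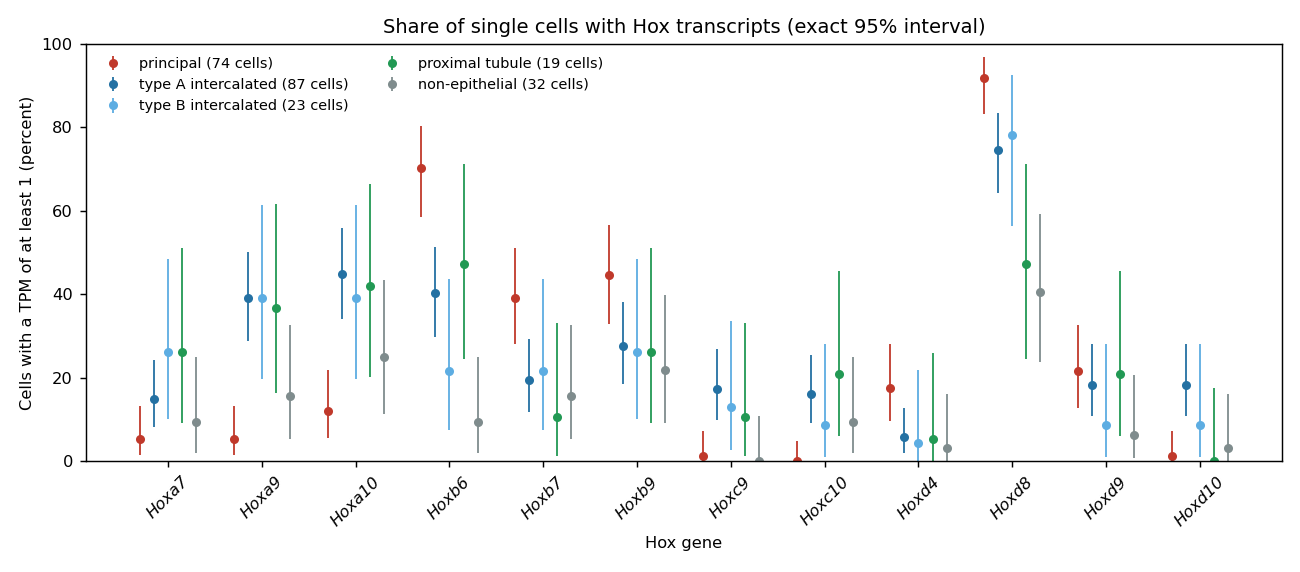
Percentage of cells in which a gene reached 1 TPM (vertical axis) for 12 Hox genes (horizontal axis) in 5 cell types, with exact 95% intervals. Principal cells have the highest share for Hoxd8 (91.9%) and Hoxb6 (70.3%), and low shares for Hoxa9 (5.41%) and Hoxa10 (12.2%).

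By mean TPM, 16 of 39 members were higher in type A than in principal cells, 17 lower and 6 equal. In HoxA the counts were 6 higher and 1 lower, in HoxB 1 and 9, in HoxC 6 and 1, and in HoxD 3 and 6. The same counts were not made over all genes. They also include members close to 0, such as Hoxa11, with means of 0.0054 TPM in type A and 0 in principal cells. A cell held a median of 4 Hox genes in type A, type B, principal and proximal tubule cells and 1.5 in non-epithelial cells. Many means rest on few cells. The Hoxb1 mean of 9.47 TPM in principal cells came from 1 cell at 701 TPM, and 78.9% of the summed Hoxd4 level in principal cells came from 1 cell. Proximal tubule cells held a Hoxa9 mean of 138 TPM, of which 1 cell gave 94.2%.

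Genes that act with or on Hox genes were followed as lists, whose counts are to be read against all genes tested: 15.2% higher and 17.3% lower in GFP-positive samples, 16.1% and 28.1% in c-Kit and 13.2% and 5.50% in CCD. The TALE cofactors, homeodomain proteins such as Pbx and Meis that bind DNA together with Hox proteins, had 7 of 9 lower in c-Kit than in DBA samples, where 28.1% of all genes were. Meis1 differed by -1.2 and Pbx4 by -2.17. In the GFP comparison 1 of 9 was higher (Pbx3, 1.21) and 2 lower, and between the tubules 1 of 8 was higher in CCD (Pbx4, 2.46) and 1 lower (Pknox2, -2.31). The medians of this list were -0.81, 0.29 and 0.39 in that order. Polycomb genes, which keep Hox genes silent, had 2 of 12 higher in GFP-positive samples (Ezh2, 2.05), 1 higher and 3 lower in c-Kit, and 2 higher in CCD (Cbx8, 2.42), with medians of 0.25, 0.02 and 0.65. The counts of genes higher in GFP-positive samples and in CCD and lower in c-Kit are near the shares over all genes. Trithorax and demethylase genes, which keep Hox genes active, had 3 of 7 higher in GFP-positive samples (Kmt2a, 0.86), 1 higher in CCD (Kdm6b, 1.14) and differences from -0.50 to 0.22 in c-Kit (limma, lowest adjusted p = 0.0614, for Wdr5), with medians of 0.26 for GFP, 0.47 for CCD and -0.02 for c-Kit. The count in CCD is near the share over all genes. The Cdx regulators were below the filter but for Cdx4, which differed by -3.36 in the GFP comparison.

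Among 17 kidney development regulators, 5 of 11 tested were higher in CCD, beside 13.2% of all genes, and 4 lower, beside 5.50%. Gata3, a regulator of the ureteric bud lineage, was higher in CCD by 5.99 ± 0.26 (limma, adjusted p = 2.0e-14) and Irx2 lower by -5.26 ± 0.34 (limma, adjusted p = 3.3e-11). In c-Kit samples 1 of 10 was higher (Sall1, 0.76) and 5 lower (Gata3, -0.64), beside 16.1% and 28.1% of all genes. In GFP-positive samples 4 of 15 were higher (Gata3, 2.97) and 4 lower (Irx3, -2.46), beside 15.2% and 17.3%. The medians of this list were 0.46, -0.49 and 0.23 in that order.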

How the data were processed

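The tables analysed are the authors' own; no reads were processed. Per the labels, polyadenylated RNA was amplified from cells captured on the C1 chip or extracted in Trizol from tubules. The submitters' processing notes name STAR 2.5.1b, RSEM 1.2.31, Seurat and GRCm38.p5. The deposited TPM tables scale each sample to a fixed total and keep no depth; the tubule unit was read from its column sums (999999.1 to 1000000.5). The deposited GFP counts and the authors' RPKM values use HTSeq-count and RefSeq mm10, per the file headers and file names. Whether counting used strand is not known here, so values of overlapping and antisense genes are uncertain: 16 of 39 members overlap no other gene in GENCODE M21. Reads in no feature (66.5% to 72.7%) stayed out of library sizes. The number of deposited per-sample columns not used was 0.

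Counts were tested with edgeR 4.0.16 (TMM, filterByExpr, quasi-likelihood F test) and TPM with limma 3.58.1 (variance trend) on log2(TPM + 1), a scale that understates the change of low genes, for genes whose mean reached 1 TPM, in R 4.3.3. Benjamini-Hochberg adjustment ran over all genes tested, with calls at an adjusted p under 0.05. Differences are log2, first minus second group, with SE. Tests are two-sided. Each test stayed within 1 table. Cells were summarised with Python 3.11.15 and scipy 1.17.1; cell types are the authors', all cells were kept and no caller of doublets was run. Tested on simulated data with 200 genes changed 4-fold, the fits recovered 99.5% (GFP), 93% (c-Kit and DBA) and 68% (tubules). False calls made up 1.97%, 6.53% and 2.86% of the calls in that order. The changed genes were drawn from those at higher levels, and the spread of the simulated counts was assumed. Recovery of low Hox genes is therefore not known.

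The members, gene lists and markers were chosen with earlier results of these data known. Members with a group mean of at least 1 TPM or CPM are given by values, and with over 12 called, the 12 with the highest group mean in full. Alternatives were DESeq2 1.42.0 and its size factors, other filters, pseudocounts, quantile normalization, no variance trend, sample weights, RPKM, replicate blocks, leaving out samples and other summaries over cells. Fits that use the tubule prefix, leave out single tubules or block the RPKM values were chosen after seeing the data. Values of 1 member and some homeobox sequences are not reported here.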

Additional observations from a re-analysis of the deposited data

Results flagged for a closer look

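The 8 cTALs were searched for outlying tubules in the 22 Hox genes with a cTAL mean of at least 1 TPM. This set is not the same as the 22 tested. In 5 genes the highest tubule was far from the next, by Dixon's criterion for that number of samples. Chance meets it in about 1 in 20 groups of normally distributed values, whereas TPM was used here without log. Hoxa7 stood at 68.84 TPM in the m1 cTAL, with the next at 45.37. Hoxb3 stood at 10.63 and Hoxc5 at 15.15 TPM in the same tubule, with the next at 2.08 and 3.85. Hoxb5 stood at 17.05 TPM in the m3 cTAL, with the next at 6.28, and Hoxd8 at 274.17 in the m4 cTAL, with the next at 223.37.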

How the results depend on the processing

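The number of Hox genes that passed stayed within 1.5 times its main value in all 3 bulk and tubule comparisons under the alternatives run. Leaving out 1 sample in turn gave 10 to 14 for GFP, 13 to 14 for c-Kit and DBA and 15 to 16 for the tubules. By direction, a mean of at least 10 TPM left 4 higher in c-Kit and 4 higher in cTAL, since 11 members were then tested in each. Over all genes, limma on RPKM called 1639 and, with the experiment as a block, 2157; without DBA sample 1 or 2, calls fell to 3600 and 3458, within a range of 3458 to 5701 for samples left out; and sample weights called 4401 between the tubules. By median in place of mean, 2 members were higher in type A and 5 in principal cells, since most medians were equal at 0. On RPKM, Hoxa5 (0.00917) and Hoxa7 (1.28) changed sign against -0.98 and -0.40, with the same values under the experiment block, and Hoxa7 was called higher (limma, adjusted p = 0.0333 and, with the block, 0.0117); the cause was not tested.

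With the replicate number as a block, 14 Hox genes passed for GFP and 15 for c-Kit and DBA, and with the tubule prefix as a block or random effect 15 and 15, with no Hox call changed; limma on RPKM with the experiment as a block gave 15. Deviations of samples with the same number correlated at 0.140 for GFP, 0.026 for c-Kit and DBA and 0.015 to 0.159 for prefixes, so the pairing is not shown, although the RPKM headers name a first and a second experiment. TPM keeps no depth, which leaves the counting error of low TPM values unknown.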
